A study of Mus musculus with 24 samples.

Results

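The genes described here encode subunits of the mitochondrial respiratory chain and of ATP synthase. They were all genes whose symbol starts with Nduf (complex I), Uqcr (complex III), Cox4 to Cox8 (complex IV) or Atp5 (complex V), together with Sdha, Sdhb, Sdhc and Sdhd (complex II), and for each gene the probe set of highest mean level across the 24 arrays was used. The rule found 90 of the 18193 genes with a symbol of their own on the array, and 84 of these in heart and 86 in lung exceeded a log2 level of 4 in at least 3 arrays of the tissue and were tested. Complex I gave 36 subunit genes and 8 assembly factors (Ndufaf genes, kept apart below), complex II 4, complex III 8, complex IV 17 and complex V 17.

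RNA was measured on Affymetrix expression arrays in lung and left ventricle of CD-1 mice of 20 weeks, labelled male, with 3 arrays in each of 8 groups. The mice were wild type (WT) or dnCREB, in which a myosin heavy chain promoter drives dominant negative CREB1, an inhibitory version of this transcription factor, in cardiomyocytes, and the series title calls them a model of cardiac failure. Mice of either genotype received phosphate-buffered saline (PBS) or particulate matter (PM) at 20 mg/kg, with particles of 1.9 µm and tissue taken after 36 h. The labels do not say how many transgenic lines were used or whether a lung and a heart came from the same animal, so p-values measure the spread between these arrays.

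In the inner mitochondrial membrane, complex I takes electrons from NADH and complex II from succinate, and both pass them through ubiquinone to complex III, then by cytochrome c to complex IV, which reduces oxygen. Complexes I, III and IV pump protons, and complex V, the ATP synthase, uses the proton gradient to make ATP. The beating heart draws most of its ATP from this chain, and striated muscle uses its own isoforms of some complex IV subunits. The nuclear genes of the chain are known targets of factors such as NRF1, GABP (an ETS factor), YY1 and the estrogen-related receptors, with the coactivator PGC-1alpha. CREB binds the cyclic AMP response element (CRE).

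The promoter windows of 6 members are printed because their genes fell in the dnCREB heart and because they show the motifs that were counted. Each runs from 250 bases before to 50 bases after the RefSeq gene start (GRCm38.p6) and is written on the strand of the gene, with the motif named after the position in capitals. The letters searched on both strands were TGACGTCA for the full CRE, TGACG for its first part (which every full CRE also holds, so that the matches overlap), AAGGTCA for the estrogen-related receptors, CCGGAAG for ETS factors and AAGATGGC for YY1, and the NRF1 form is given by name.
Ndufa10 (chr1:92473709-92474008, minus strand; full CRE): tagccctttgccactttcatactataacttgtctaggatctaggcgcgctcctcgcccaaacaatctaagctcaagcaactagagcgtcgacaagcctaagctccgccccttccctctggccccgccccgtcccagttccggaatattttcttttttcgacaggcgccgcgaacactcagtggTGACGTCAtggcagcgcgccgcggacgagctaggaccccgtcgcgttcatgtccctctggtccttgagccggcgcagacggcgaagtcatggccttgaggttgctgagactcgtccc
Ndufb2 (chr6:39592315-39592614, plus strand; receptor core, then full CRE): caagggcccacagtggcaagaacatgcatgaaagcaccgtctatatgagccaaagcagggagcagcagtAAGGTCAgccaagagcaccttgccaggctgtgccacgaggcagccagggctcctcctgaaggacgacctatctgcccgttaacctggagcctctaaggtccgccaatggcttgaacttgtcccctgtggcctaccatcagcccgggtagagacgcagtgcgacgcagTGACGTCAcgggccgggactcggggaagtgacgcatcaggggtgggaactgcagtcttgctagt
Uqcrfs1 (chr13:30545267-30545566, minus strand; full CRE): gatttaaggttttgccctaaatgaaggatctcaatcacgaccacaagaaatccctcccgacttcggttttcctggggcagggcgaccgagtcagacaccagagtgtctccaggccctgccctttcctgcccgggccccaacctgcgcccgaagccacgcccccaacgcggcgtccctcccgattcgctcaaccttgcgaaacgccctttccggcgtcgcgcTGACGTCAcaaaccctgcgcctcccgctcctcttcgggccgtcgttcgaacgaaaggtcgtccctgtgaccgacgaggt
Sdha (chr13:74350191-74350490, minus strand; NRF1 form at 3 places): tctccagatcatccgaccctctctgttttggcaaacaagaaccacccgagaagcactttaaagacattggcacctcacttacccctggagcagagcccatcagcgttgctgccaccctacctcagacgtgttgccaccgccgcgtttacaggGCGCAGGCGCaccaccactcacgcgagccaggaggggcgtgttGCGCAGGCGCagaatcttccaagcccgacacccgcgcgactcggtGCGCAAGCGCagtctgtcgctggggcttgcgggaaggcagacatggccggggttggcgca
Ndufs4 (chr13:114388045-114388344, minus strand; YY1 form, after the start): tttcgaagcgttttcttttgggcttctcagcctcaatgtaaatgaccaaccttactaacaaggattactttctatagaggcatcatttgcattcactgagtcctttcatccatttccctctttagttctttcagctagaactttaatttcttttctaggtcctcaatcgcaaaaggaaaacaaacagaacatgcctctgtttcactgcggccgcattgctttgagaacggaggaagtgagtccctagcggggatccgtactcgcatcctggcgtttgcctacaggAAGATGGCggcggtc
Atp5e (chr2:174464052-174464351, minus strand; ETS form, then receptor core after the start, both in reverse complement): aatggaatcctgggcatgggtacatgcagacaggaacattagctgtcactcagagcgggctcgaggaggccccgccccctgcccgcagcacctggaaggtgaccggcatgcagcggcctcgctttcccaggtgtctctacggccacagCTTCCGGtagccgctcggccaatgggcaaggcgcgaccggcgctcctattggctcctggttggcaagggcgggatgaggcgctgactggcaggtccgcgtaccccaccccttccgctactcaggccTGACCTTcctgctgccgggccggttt

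A promoter window was found by symbol for 74 of the 90 members. The full CRE was present in 3 of them, the first 3 genes printed, which is 4.05% against 2.03% of the 27025 genes with such a window. The first part of the CRE was present in 27 (36.5% against 23.0%), the receptor core in 8 (10.8% against 5.38%), the NRF1 form in 17 (23.0% against 5.19%), the ETS form in 19 (25.7% against 9.93%) and the YY1 form in 10 (13.5% against 3.19%). A match is a description of these letters and not a site of binding.

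Several facts about the arrays bear on all results. Creb1 is read by 5 probe sets in heart, and they differed. The one with the highest mean over all arrays was not higher in dnCREB hearts, with differences of -0.36 under PBS and -0.72 under PM (adjusted p = 0.494 and 0.168). Another, chosen after its values were seen, was higher by 7.51 log2 units under PBS and 7.75 under PM, and a further one by 2.81 and 3.33, while the other 2 were not higher and 1 of these fell by 0.82 under PM (adjusted p = 0.0186). All 6 WT hearts read as high in Xist, expressed from the inactive X chromosome, while 5 of the 6 dnCREB hearts read as high in the Y-linked Eif2s3y, so that in heart sex and genotype are nearly one split and 7 of the 12 hearts go against the label male. The exception is dnCREB PM replicate 3, which was high in Xist like the WT hearts. In lung 6 arrays were high in Xist, 4 in Eif2s3y and 2 in neither. The heart was sampled as left ventricle, and its 12 cardiomyocyte markers (Myh6, Tnnt2, Ryr2 and others) all exceeded the level of 4, with a mean level of 15.65 to 15.86 per WT array and 15.48 to 15.69 per dnCREB array.

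In the dnCREB left ventricle the median difference of the members from the WT was below 0 in every complex and under both treatments. The symbol rule does not reach the subunits encoded by mitochondrial DNA, so these were not examined. Under PBS, 37 of 84 members (44.0%) fell and 0 rose, against a background of 18.8% of all 9962 genes called, 5.6% lower and 13.2% higher (limma, adjusted p under 0.05). The differences ran from -0.78 to 0.53 log2 units with a median of -0.36, while the median of all genes tested was 0.09. Under PM, 51 of 84 (60.7%) fell and 0 rose, against a background of 20.5% called, 9.13% lower and 11.4% higher, with a median of -0.45 against 0.02 for all genes. 34 members fell under both treatments, 3 under PBS alone and 17 under PM alone.

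**Figure D1:**
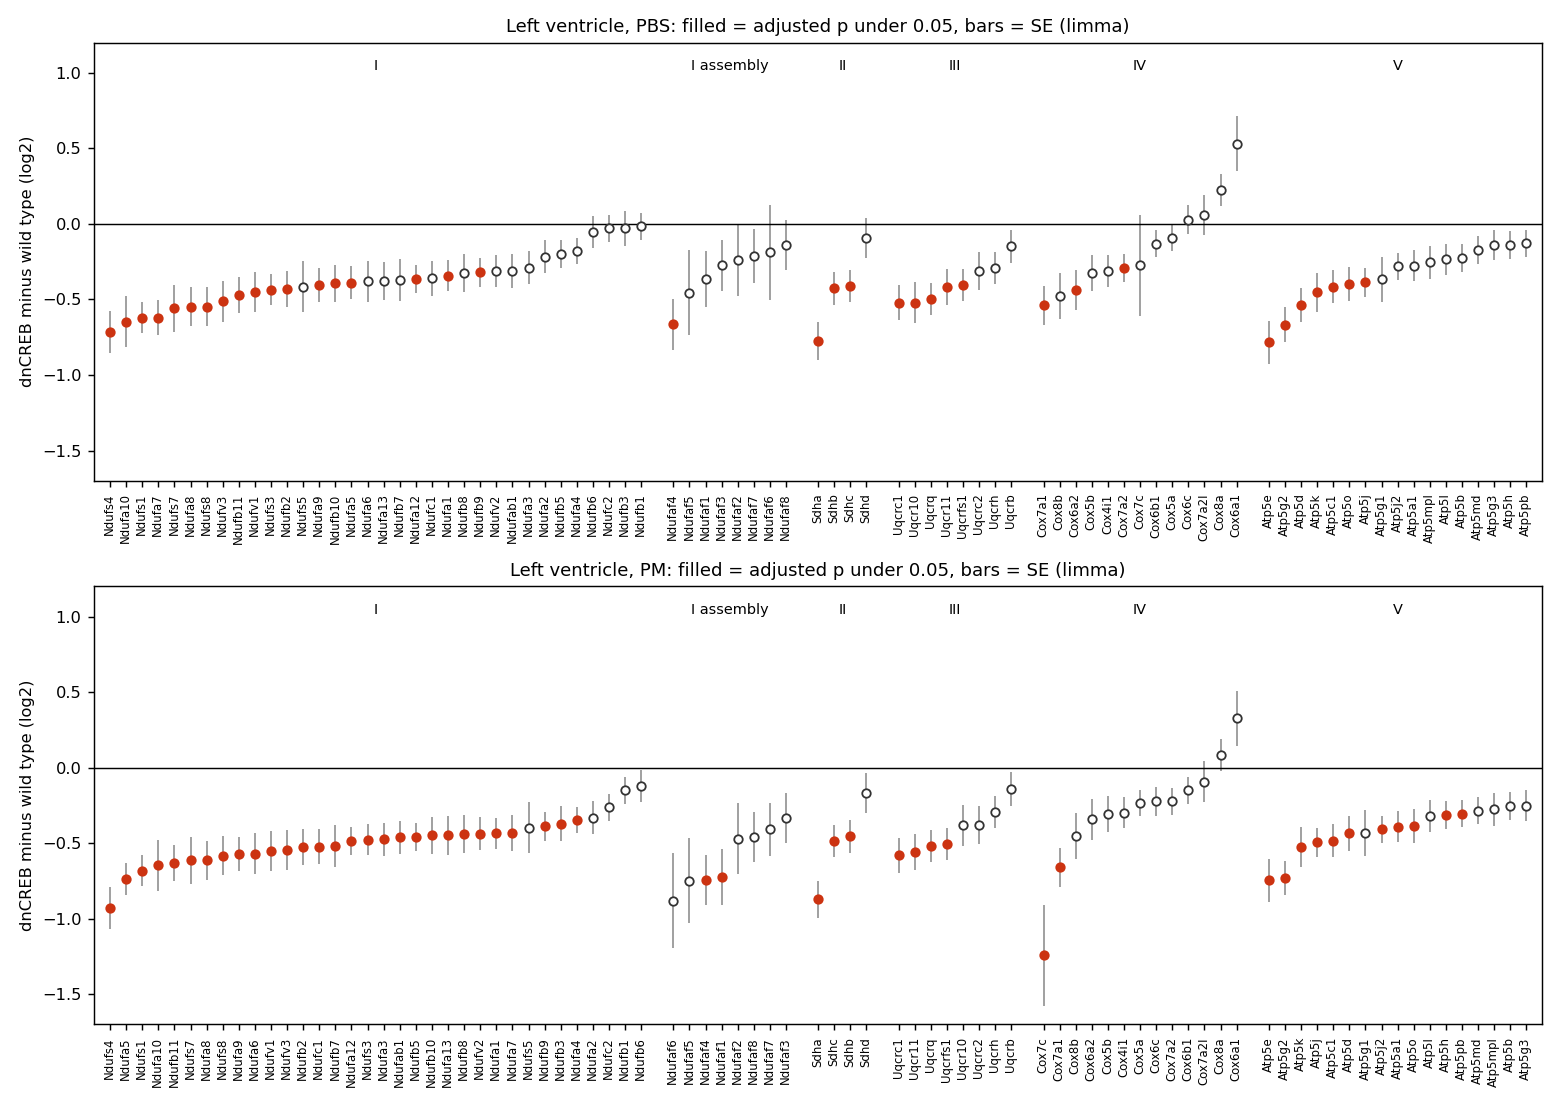
Log2 difference between dnCREB and WT left ventricle for each of the 84 members tested, under PBS (top) and PM (bottom), grouped by complex and ordered by size, with SE bars and filled points for an adjusted p under 0.05 (limma). Of the 84 points, 80 lie below 0 under PBS and 82 under PM, and every filled point lies below 0.

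The shift was small against the range of the log2 scale and steady from array to array. The median member level was 14.31 to 14.56 in the 6 WT hearts and 13.87 to 14.12 in the 6 dnCREB hearts, without overlap. For 61 members (72.6%) all 6 dnCREB hearts lay below all 6 WT hearts, an order that 8.69% of all genes tested showed, and for 0 members did all 6 lie above. The Xist-high dnCREB PM replicate 3 lay below all 6 WT hearts for 79 of 84 members (94.0%, against 32.4% of all genes), and the other dnCREB hearts did so for 63 to 80 members, against 20.6%, 23.8% and 25.9% of all genes in dnCREB PBS replicates 1, 2 and 3 and 28.3% and 20.6% in dnCREB PM replicates 1 and 2. Since the array reads a mixture of cells, fewer mitochondria-rich cells and less RNA per cell cannot be told apart.

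Beside this, fibroblast markers moved the other way. Under PBS and under PM alike, 5 of 8 fibroblast markers were called higher, with Col1a1, a chain of type I collagen, higher by 2.45 and 2.66 log2 units, and the mean level of the list was 10.63 to 11.18 in WT and 11.73 to 13.27 in dnCREB hearts. Of 9 macrophage markers tested, 1 was higher under PBS and 7 under PM, with list means of 7.53 to 9.54 in WT and 9.03 to 9.84 in dnCREB hearts. Of the 12 cardiomyocyte markers 2 fell in each comparison (Myoz2 and Ryr2 under PBS, Ryr2 and Tnni3 under PM), and their median difference was -0.15 and -0.16. With each array left out in turn, Ryr2 under PBS kept its call and the other 3 calls were lost in 5 to 9 of 12 fits. None of the 6 endothelial markers passed (0 called by limma, median 0.03 and 0.36). Beside these counts, 13.2% of all genes were called higher and 5.6% lower under PBS, and 11.4% higher and 9.13% lower under PM. The part of these shifts in cell markers in the fall of the members was not tested.

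**Figure D2:**
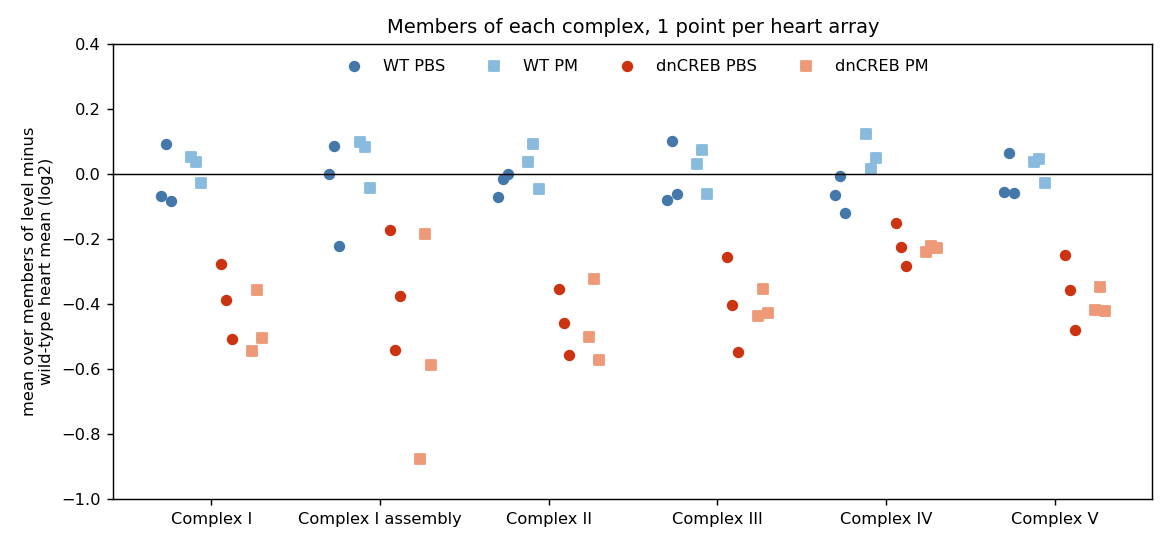
For each left ventricle array and complex, the mean over its members tested of the level minus that gene's mean over the 6 WT hearts, in log2 units (1 point per array, 3 per group). In complexes I, II, III, IV and V the dnCREB points, at -0.15 or lower, lie below all WT points, while the complex I assembly factors overlap.

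Succinate dehydrogenase, complex II, holds the member with the smallest p in both comparisons. Sdha, its flavin-binding catalytic subunit, stood at 14.55, 14.69 and 14.59 in the WT PBS hearts and at 13.96, 13.88 and 13.65 in the dnCREB PBS hearts. It stood at 14.74, 14.74 and 14.58 in the WT PM hearts and at 13.83, 13.98 and 13.63 in the dnCREB PM hearts. Every dnCREB value of Sdha thus lay below every WT value. The fall was 0.78 ± 0.12 (SE) log2 units under PBS, 1.71-fold (adjusted p = 0.0023), and 0.87 ± 0.12 under PM, 1.83-fold (adjusted p = 0.00131). Sdhb, the iron-sulphur subunit, fell by 0.43 and 0.45 (adjusted p = 0.0214 and 0.0158), and Sdhc, a membrane anchor, by 0.41 and 0.49 (adjusted p = 0.0229 and 0.011). Sdhd, the other membrane anchor, did not pass, with differences of -0.10 and -0.17 (adjusted p = 0.65 and 0.405) and overlapping groups: its WT hearts lay between 13.53 and 13.78 and its dnCREB hearts between 13.41 and 13.87. With each of the 12 heart arrays left out in turn Sdha kept its call, while under PBS Sdhb and Sdhc each lost it in 3 of the 12 fits (adjusted p up to 0.0786 and 0.0873) and under PM Sdhb in 2 (up to 0.056).

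In complex I, 18 of 34 subunits fell under PBS (median -0.38) and 29 of 34 under PM (median -0.48). For this and all counts by complex or part of a complex below, 5.6% of all genes were called lower under PBS and 9.13% under PM. The core subunits, which hold the flavin and the iron-sulphur clusters or sit beside them, fell in 5 of 6 genes under PBS and 6 of 6 under PM. Among them was Ndufs1, the large iron-sulphur subunit of the NADH-oxidising arm, at 14.15, 14.34 and 14.27 in WT PBS hearts against 13.75, 13.62 and 13.52 in dnCREB PBS hearts. Under PM it stood at 14.31, 14.38 and 14.17 against 13.58, 13.58 and 13.65. These groups did not overlap, and the fall was 0.62 ± 0.10 (adjusted p = 0.00282) and 0.68 ± 0.10 (adjusted p = 0.00173). Ndufs7 and Ndufs8, which carry the clusters nearest to ubiquinone, fell by 0.56 and 0.55 under PBS and by 0.61 and 0.58 under PM. Ndufv1, which binds the flavin, fell by 0.45 and 0.55. In leave-one-out fits Ndufs1 kept both calls, but under PBS Ndufs7 lost its call in 3 of 12 fits, Ndufs8 in 2 and Ndufv1 in 5 (adjusted p up to 0.115, 0.0605 and 0.129), and under PM Ndufs7 in 4 and Ndufv1 in 2 (up to 0.0635 and 0.0588).

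Accessory subunits of complex I, which surround the core, fell as well. Ndufs4, an accessory subunit of the NADH-oxidising arm whose loss causes severe complex I deficiency, stood at 12.78, 13.06 and 12.67 in WT PBS hearts and at 12.17, 12.15 and 12.05 in dnCREB PBS hearts. Under PM the values were 12.95, 12.95 and 12.80 against 11.73, 12.16 and 12.02. The groups were apart in both, by 0.71 ± 0.14 log2 units (adjusted p = 0.0058) and 0.93 ± 0.14 (adjusted p = 0.00158). Ndufa5 fell by 0.39 ± 0.11 (adjusted p = 0.0308) in the PBS comparison and 0.73 ± 0.11 (adjusted p = 0.00153) in the PM comparison, and Ndufa7 by 0.62 ± 0.12 (adjusted p = 0.00532) and 0.43 ± 0.12 (adjusted p = 0.0264). Of the 71 members tested in heart with a promoter window, 48 fell in at least 1 comparison and 23 in neither. The full CRE was present in 3 of the 48 and 0 of the 23, its first part in 15 and 11, the receptor core in 3 and 4, the NRF1 form in 11 and 5, the ETS form in 10 and 9 and the YY1 form in 9 and 1, given as counts without a test. Of the 3 genes with a full CRE, Ndufa10 fell by 0.65 under both treatments, Ndufb2 fell by 0.43 and 0.53, and Uqcrfs1 of complex III by 0.40 and 0.50. Ndufs4 kept both calls whichever array was left out, Ndufa7 its call under PBS, and Ndufa5, Ndufb2 and Uqcrfs1 theirs under PM. In the other comparison Ndufa5 lost its call in 4 of 12 fits, Ndufa7, Ndufb2 and Uqcrfs1 in 5 each, and Ndufa10 lost each of its calls in 3.

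The accessory subunits differed among themselves. Of 13 Ndufa genes 7 fell under PBS and 12 under PM, and of 10 Ndufb genes, most of them in the membrane arm, 4 and 8. Ndufb6 gave differences of -0.06 and -0.12 and Ndufb1 of -0.02 and -0.15, and neither passed. Ndufb3 gave -0.03 under PBS (adjusted p = 0.892) and fell by 0.37 under PM (adjusted p = 0.0457). Ndufa4, named for complex I and now assigned to complex IV, gave -0.18 under PBS (adjusted p = 0.168) and fell by 0.35 under PM (adjusted p = 0.0171). The PM call of Ndufb3 was lost in 10 of 12 leave-one-out fits (adjusted p up to 0.122) and that of Ndufa4 in 2 (up to 0.0522).

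Of the 8 assembly factors of complex I, which build the complex but are not part of it, 1 fell under PBS (12.5%) and 2 under PM (25.0%). Their medians were -0.26 and -0.60. Of all genes, 5.6% and 9.13% were called lower, and so few calls do not show a fall of this class. Ndufaf4 fell by 0.66 ± 0.17 and 0.74 ± 0.17 (adjusted p = 0.0206 and 0.0122), and its dnCREB hearts, at 11.25 to 11.49, lay below the lowest WT heart at 11.61. Ndufaf1 gave -0.36 under PBS (adjusted p = 0.199) and fell by 0.73 under PM (adjusted p = 0.0209). Ndufaf6 had the lowest value of the class under PM, -0.88 ± 0.32, with overlapping groups and an adjusted p of 0.075. Leaving out 1 array in turn ended the calls of Ndufaf4 under PBS and of Ndufaf1 under PM in 4 of 12 fits each (adjusted p up to 0.0744 and 0.0717), but not that of Ndufaf4 under PM.

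Complex III, the cytochrome bc1 complex, fell in 5 of 8 genes under PBS (median -0.41) and 4 of 8 under PM (median -0.44). Uqcrc1, a core protein, stood at 14.23, 14.57 and 14.34 in WT PBS hearts and 13.90, 13.94 and 13.74 in dnCREB PBS hearts, and at 14.46, 14.52 and 14.31 against 13.87, 13.88 and 13.81 under PM. No dnCREB value reached the WT values, and the fall was 0.52 ± 0.11 (adjusted p = 0.0111) and 0.58 ± 0.11 (adjusted p = 0.00664). The small subunit Uqcrq fell by 0.50 and 0.52 (adjusted p = 0.00889 and 0.00722), and Uqcr11 by 0.42 and 0.56 (adjusted p = 0.0348 and 0.00925). Uqcr10 fell by 0.52 under PBS (adjusted p = 0.0247) and gave -0.38 under PM (adjusted p = 0.075). Uqcrfs1, the Rieske iron-sulphur protein, is given above. Uqcrc1 and Uqcrq kept both calls whichever array was left out, while under PBS Uqcr11 lost its call in 6 of 12 fits and Uqcr10 in 4 (adjusted p up to 0.125 and 0.0951).

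ATP synthase, complex V, fell in 7 of 17 genes under PBS (median -0.28) and 11 of 17 under PM (median -0.39). Under PBS the smallest p belonged to Atp5g2, which is among the genes for the membrane ring subunit c, and to Atp5e and Atp5d, the epsilon and delta subunits of the rotating central stalk. Atp5d fell by 0.54 under PBS and by 0.43 under PM, where its call was lost in 3 of 12 leave-one-out fits (adjusted p up to 0.0858). Under PM Atp5k (-0.53), Atp5j (-0.49) and Atp5c1 (-0.48) lay further below 0 than Atp5d. Atp5e stood at 14.27, 14.26 and 14.15 in WT PBS hearts and 13.58, 13.65 and 13.10 in dnCREB PBS hearts, and at 14.20, 14.21 and 14.21 against 13.42, 13.59 and 13.37 under PM. All dnCREB values lay below all WT values, by 0.78 ± 0.14 (adjusted p = 0.00424) and 0.75 ± 0.14 (adjusted p = 0.00536). Atp5g2 stood at 13.32, 13.32 and 13.14 against 12.77, 12.61 and 12.40 under PBS, and at 13.24, 13.34 and 13.23 against 12.48, 12.63 and 12.51 under PM. It fell by 0.67 ± 0.11 (adjusted p = 0.00359) and 0.73 ± 0.11 (adjusted p = 0.00224). Atp5e and Atp5g2 kept both calls whichever array was left out.

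All 17 genes lay below 0 in both comparisons. In the F1 head and central stalk 3 of 5 genes fell under PBS and 4 of 5 under PM, in the c-ring genes 1 of 3 in both, and in the peripheral stalk and membrane subunits 3 of 9 and 6 of 9. Atp5g1 and Atp5g3, which encode the same mature ring subunit as Atp5g2, gave -0.37 and -0.14 under PBS and -0.43 and -0.25 under PM and did not pass. Atp5j, coupling factor 6 of the peripheral stalk, fell by 0.39 and 0.49 (adjusted p = 0.019 and 0.00629), and its PBS call was lost in 3 of 12 leave-one-out fits (adjusted p up to 0.0713). Atp5b, the catalytic beta subunit, gave -0.23 and -0.25 (adjusted p = 0.121 and 0.083). Atpif1, the inhibitor of ATP hydrolysis by the synthase and not a member by its symbol, went the other way without passing: it was at 14.15, 14.42 and 14.53 in WT PBS hearts and 15.29, 15.36 and 14.80 in dnCREB PBS hearts, a difference of 0.78 (adjusted p = 0.0525), and 0.52 under PM (adjusted p = 0.176). Without dnCREB PM replicate 1 the Atpif1 differences of 0.78 and 0.81 passed (adjusted p = 0.0126 and 0.0221), and the PBS difference also passed without dnCREB PBS replicate 3 (0.96, adjusted p = 0.0488) and without dnCREB PM replicate 3 (adjusted p = 0.0488).

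**Figure D3:**
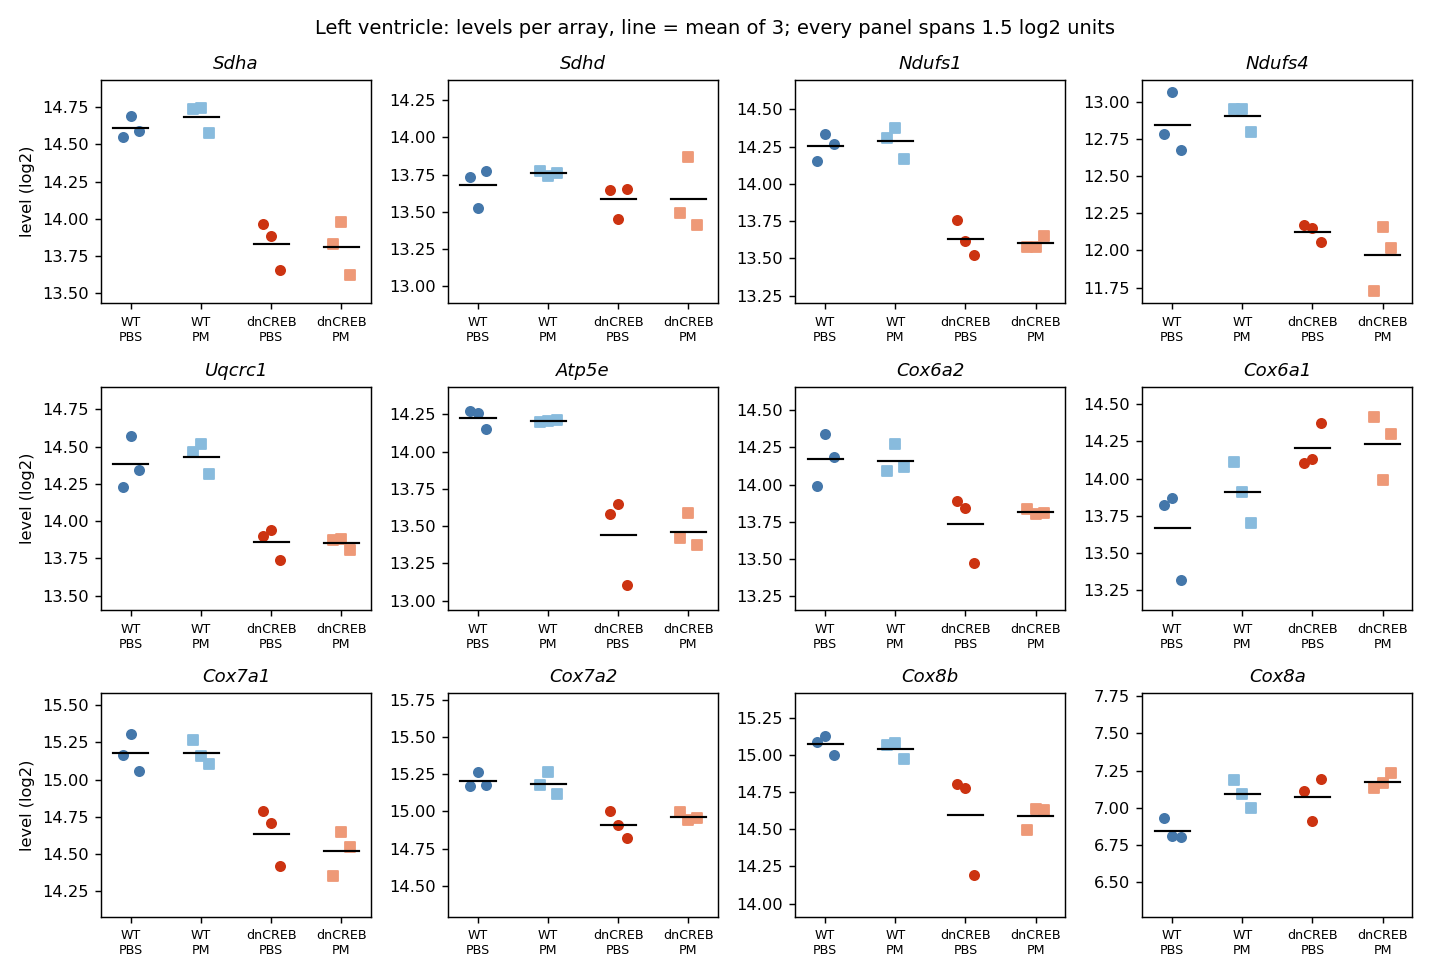
Levels of 12 members in the left ventricle, with 1 point per array (log2), lines for the mean of 3 arrays and panels that all span 1.5 log2 units. Sdha, Ndufs1, Ndufs4, Uqcrc1, Atp5e, Cox6a2, Cox7a1, Cox7a2 and Cox8b are lower in all 6 dnCREB hearts, Sdhd overlaps, and Cox6a1 and Cox8a are not lower.

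Complex IV, cytochrome c oxidase, had the smallest share of falls among the 5 complexes (assembly factors aside). It was 3 of 13 under PBS (23.1%, median -0.27) and 2 of 13 under PM (15.4%, median -0.23). Of all genes, 5.6% and 9.13% were called lower. Complex IV members also spread most. The muscle isoforms of its small subunits were on the low side. Cox7a1, the heart and skeletal muscle form of subunit VIIa, stood at 15.17, 15.30 and 15.06 in WT PBS hearts and at 14.79, 14.71 and 14.42 in dnCREB PBS hearts, and at 15.27, 15.16 and 15.10 against 14.35, 14.65 and 14.55 under PM. The groups did not overlap, and it fell by 0.54 ± 0.13 (adjusted p = 0.0161) and 0.66 ± 0.13 (adjusted p = 0.00639). Cox6a2, the muscle form of subunit VIa, fell by 0.44 ± 0.13 under PBS (adjusted p = 0.0457) and gave -0.34 under PM (adjusted p = 0.0987), and Cox8b, that of subunit VIII, gave -0.48 and -0.45 (adjusted p = 0.0531 and 0.0609). All 6 dnCREB hearts lay below all 6 WT hearts for each of these 3 genes. The PBS call of Cox6a2 was lost in 10 of 12 leave-one-out fits (adjusted p up to 0.159) and that of Cox7a1 in 2 (up to 0.0616).

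The forms found in most tissues did not follow them alike. Cox6a1, the counterpart of Cox6a2, stood at 13.82, 13.87 and 13.32 in WT PBS hearts and at 14.11, 14.13 and 14.37 in dnCREB PBS hearts, and at 14.11, 13.91 and 13.70 against 14.42, 13.99 and 14.30 under PM. It was higher in every dnCREB PBS heart than in the WT PBS hearts, overlapped under PM and did not pass (0.53 ± 0.18, adjusted p = 0.067, and 0.33 ± 0.18, adjusted p = 0.233). Cox8a, the counterpart of Cox8b, gave 0.22 and 0.08 (adjusted p = 0.163 and 0.622). Cox7a2, the counterpart of Cox7a1, fell by 0.29 under PBS (adjusted p = 0.0473) and gave -0.22 under PM (adjusted p = 0.111), with the call lost in all 12 leave-one-out fits (adjusted p up to 0.156), and Cox7a2l, a related factor of supercomplex assembly, gave 0.06 and -0.09. Cox4i1, the common form of subunit IV, gave -0.31 and -0.30 (adjusted p = 0.0629 and 0.0682), and Cox6b1 -0.13 and -0.15.

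Within each heart, the muscle form minus its counterpart shows how unequal these shifts were. The absolute size of such a difference between 2 probe sets has no meaning, but its change between arrays does. Cox6a2 minus Cox6a1 ran from -0.02 to 0.87 in the 6 WT hearts and from -0.90 to -0.18 in the 6 dnCREB hearts. Cox7a1 minus Cox7a2 ran from -0.12 to 0.09 and from -0.64 to -0.20. Cox8b minus Cox8a was 7.88 or more in the WT hearts (median 8.07) and 7.87 or less in the dnCREB hearts (median 7.43). The ranges of the 2 genotypes do not overlap in any of the 3 pairs, which is given as a description, without a test.

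Cox5a, Cox5b and Cox6c, further subunits of complex IV, were high in every heart and did not pass. Cox5a gave -0.09 and -0.23, Cox5b -0.33 and -0.30, and Cox6c 0.03 and -0.22 (adjusted p = 0.079 or more). Other genes were under the level of 4 in heart and were not tested there: Cox4i2, the lung form of subunit IV, at 2.68 to 2.90, Cox6b2, a testis form, at 1.96 to 2.04, Cox7b2 and Cox8c of complex IV, and, grouped by symbol with complex I, Ndufb4 and Ndufa4l2, a hypoxia-induced relative of Ndufa4, at 2.24 to 2.27. Ndufb4 has 1 probe set, which read 1.90 to 2.02 in all arrays of both tissues. For it, an absent transcript and a failing probe set cannot be told apart. Cox7c was called lower under PM, by 1.24 ± 0.33 (adjusted p = 0.0261), but its probe set reads close to the limit of 4: it stood at 5.46, 4.13 and 5.75 in the WT PM hearts and 4.04, 3.73 and 3.85 in the dnCREB PM hearts, and at 3.74 or more in the PBS hearts, each of which lay below the 5.46 of WT PM replicate 1. Without WT PM replicate 3 the difference was -0.93 (adjusted p = 0.0847), and without WT PM replicate 1 it was -1.07 (adjusted p = 0.0873). It also lost its call without dnCREB PM replicate 2 (-1.17, adjusted p = 0.0613) and without dnCREB PM replicate 3 (-1.23, adjusted p = 0.0685).

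Other probe sets of the same genes fell too, but the number of calls depended on single arrays and on the sex class. Among all 153 probe sets of members that could be tested in heart, a fit chosen after the data were seen, 61 were lower under PBS and 95 under PM and 0 were higher. Of the 69 that do not represent a gene above, 27 and 45 were lower. The share called among all 16693 probe sets of that fit was not worked out, so these counts have no background beside them. The count of 37 under PBS became 22 without WT PBS replicate 1, 9 without WT PBS replicate 2, 19 without WT PBS replicate 3, 18 without dnCREB PBS replicate 2 and 9 without dnCREB PBS replicate 3, and the count of 51 under PM became 33 without WT PM replicate 2 and 31 without dnCREB PM replicate 3. Of the 37 members, 9 kept their call whichever heart array was left out (Sdha, Ndufs1, Ndufs4, Ndufa7, Uqcrc1, Uqcrq, Atp5d, Atp5e and Atp5g2), and of the 51 under PM 28 did. A covariate for the Xist and Eif2s3y class rests in heart on dnCREB PM replicate 3 alone. With it, 1 of 84 members fell under PBS (Sdha, by 1.05, limma, adjusted p = 0.0261) and 13 of 84 under PM. That fit called 337 of all 9962 genes under PBS and 942 under PM, in either direction. An excess of member falls over all genes is thus not shown under PBS in this fit. The member medians were -0.39 and -0.48.

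Genes outside the symbol rule that work with the chain were taken as 3 lists. These lists, like the members, were drawn up with earlier results of these arrays known. Of 19 electron carriers and their partners, 6 fell under PBS and 10 under PM and 0 rose, so that 13 and 9 did not pass, with medians of -0.29 and -0.49. The background was 18.8% of all genes called under PBS, 5.6% lower, and 20.5% called under PM, 9.13% lower. Slc25a5, an exchanger of ADP and ATP, gave values above 0, 0.51 under PBS (adjusted p = 0.0574) and 0.21 under PM. Etfb and Etfa, the subunits of the flavoprotein that takes electrons from fatty acid oxidation, fell by 1.09 and 0.60 under PBS and by 1.10 and 0.68 under PM, and Etfdh, which hands these electrons to ubiquinone, by 0.90 and 1.06. Coq2, Coq7 and Coq9 of ubiquinone synthesis fell by 0.69, 0.52 and 0.68 under PBS and by 0.83, 0.84 and 0.85 under PM. Cyc1, the cytochrome c1 of complex III whose symbol lies outside the rule, fell by 0.37 under PM. The calls of Etfa, Etfb and Etfdh stood whichever array was left out, as did those of Coq2, Coq7 and Coq9 under PM, while under PBS these 3 were lost in 4, 6 and 3 of 12 fits, and that of Cyc1 under PM in 7.

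Assembly and expression factors outside the rule fell in 4 of 31 genes under PBS, with 1 higher, and in 9 of 31 under PM, with 0 higher. Of all genes tested, 18.8% were called under PBS, 5.6% lower and 13.2% higher, and 20.5% under PM, 9.13% lower and 11.4% higher. Tmem70, needed to assemble ATP synthase, fell by 0.58 and 1.07, and Cox10, which makes haem A for complex IV, by 0.95 in both. Ttc19, a complex III factor, and Lrpprc, which stabilises mitochondrial messenger RNA, fell by 1.11 and 0.84 under PM. Cox19, a copper chaperone of complex IV, was the gene that rose, by 1.34 under PBS (adjusted p = 0.00945). Cox19, Ttc19, Lrpprc and the PM call of Tmem70 stood in every leave-one-out fit, and Tmem70 under PBS and Cox10 in both comparisons lost theirs in 4 of 12.

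Of 18 regulators of mitochondrial genes tested, 3 fell under PBS and 7 under PM and 0 rose. The background was 18.8% of all genes called under PBS, 5.6% lower, and 20.5% called under PM, 9.13% lower (limma). Ppara, the fatty acid receptor, fell by 1.37 and 1.35, and the estrogen-related receptor gene Esrrb by 0.95 in both. Esrra, Esrrg, Gabpa, Perm1 and Tfam, the mitochondrial transcription factor, fell under PM by 0.61, 0.73, 0.55, 0.82 and 0.59. Ppargc1a, which encodes PGC-1alpha, stood at 11.99, 11.98 and 11.41 in WT PBS hearts and 10.52, 9.99 and 6.28 in dnCREB PBS hearts, a fall of 2.86 ± 0.86 (adjusted p = 0.0423). Under PM it stood at 11.69, 11.57 and 11.56 against 11.26, 10.44 and 10.57, which gave -0.85 (adjusted p = 0.525). Replicate 3 of dnCREB PBS lay far below the other hearts, and without it the fall under PBS was 1.53 (adjusted p = 0.0087) and the difference of -0.85 under PM, whose SE went from 0.86 to 0.25, had an adjusted p of 0.0381. The PBS call of Ppargc1a was lost in 8 of 12 leave-one-out fits (adjusted p up to 0.109). The calls of Ppara, Esrrb and Esrrg stood in all of them, and those of Esrra, Gabpa, Perm1 and Tfam were lost in 5, 3, 4 and 4.

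PM left no member called in either genotype of heart. In WT hearts 0 of 84 members passed (limma; 2 had an unadjusted p under 0.05) against a background of 0.01% of genes called, and the median difference was 0.04. The smallest p belonged to Cox7c (0.95), Cox8a (0.25) and Cox6c (0.16), all at an adjusted p of 1.0. Without WT PM replicate 2, 1 member passed. In dnCREB hearts 0 of 84 passed (0 with an unadjusted p under 0.05; background 0.0%), with a median of -0.05 and Ndufb5 (-0.20), Ndufa5 (-0.21) and Ndufb3 (-0.19) leading at an adjusted p of 0.966.

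The interaction, which asks whether the genotype difference changed with PM, gave 0 of 84 (limma; 1 with an unadjusted p under 0.05; background 0.0%), with Ndufa5 at -0.35 ± 0.15, Ndufb3 at -0.34 ± 0.16 and Cox7c at -0.97 ± 0.47, all at an adjusted p of 0.98. The larger number of falls under PM than under PBS is therefore not shown to be a difference between the treatments. Ndufa5 had 15.70, 15.75 and 15.53 in WT PBS hearts, 15.93, 15.73 and 15.73 in WT PM hearts, 15.36, 15.23 and 15.24 in dnCREB PBS hearts and 14.97, 15.17 and 15.04 in dnCREB PM hearts. Its PM hearts were the lower of the dnCREB hearts, while its WT groups overlapped.

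In lung, where the promoter of the transgene is not meant to act, no member passed for genotype. The median SE of the members' differences was 0.24 in lung against 0.12 in heart, so 0 calls do not show that shifts of the size seen in heart were absent. Under PBS 0 of 86 members passed (limma; 1 with an unadjusted p under 0.05) against a background of 0.0259% of 11600 genes, 0.0172% lower and 0.00862% higher, with a median of -0.11. The smallest p belonged to Ndufaf6 (-0.69), Cox8a (0.33) and Ndufaf4 (-0.41), at an adjusted p of 0.875. Under PM 0 of 86 passed (0 with an unadjusted p under 0.05; background 0.0%), with a median of -0.13 and Ndufa9 (-0.40), Uqcrc1 (-0.42) and Ndufv1 (-0.62) leading at an adjusted p of 0.901.

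PM in lung gave no call among the members either. All 3 WT PBS lungs were high in Eif2s3y, while 2 of the 3 WT PM lungs were high in Xist. With the Xist and Eif2s3y class as a covariate 2 of 86 members were called higher in WT. That fit called 2080 of all 11600 genes in either direction, so the 2 calls are not an excess. WT PM replicates 1 and 2 were also high in fast skeletal muscle markers, and no WT PBS lung was. In WT lungs 0 of 86 passed (limma; 8 with an unadjusted p under 0.05) against a background of 2.39%, 0.431% lower and 1.96% higher, and the member median was -0.02 where that of all genes was 0.11. Atp5j stood at 12.49, 12.07 and 12.00 under PBS and 11.72, 11.47 and 11.69 under PM. Its groups did not overlap, but the difference of -0.56 ± 0.17 had an adjusted p of 0.0862. Cox7c (-1.08, adjusted p = 0.101) and Ndufa4 (-0.83, adjusted p = 0.114) followed. In dnCREB lungs 0 of 86 passed (4 with an unadjusted p under 0.05; background 0.00862%), led by Cox8a (-0.47, adjusted p = 0.357), Atp5g1 (-0.51, adjusted p = 0.446) and Cox6a2 (-1.12, adjusted p = 0.456). The interaction gave 0 of 86 (2 with an unadjusted p under 0.05; background 0.00862%), led by Cox8a (-0.54), Uqcrc1 (-0.72) and Cox6b2 (-0.66) at an adjusted p of 0.831.

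The lung arrays varied more than the hearts. The median member level was 11.60 in WT PBS replicate 1, 11.13 in dnCREB PBS replicate 1 and 10.65 to 11.04 in the other 10. The muscle isoforms of complex IV stood apart in the same arrays. Cox6a2 was at 8.82 and 9.74 in these 2 arrays and at 7.03 to 8.26 in the others. Cox7a1 was at 10.43 and 10.10 in them and at 6.75 to 8.11 elsewhere. Cox8b was at 9.57 and 10.69 in them and at 7.30 to 8.79 elsewhere.

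Other genes marked these 2 lungs in partly different ways. In dnCREB PBS replicate 1 the brown fat gene Ucp1 was at 10.29 (2.17 to 3.59 in the other lungs). The mean of the 12 cardiomyocyte markers was highest in that array, at 10.23. It was next highest in WT PBS replicate 1, at 9.06, and 7.69 to 8.97 in the other lungs. WT PBS replicate 1 had Ucp1 at 2.21 but the lowest mean of 6 endothelial markers, 9.87 against 10.59 to 11.66, and Ndufa4l2 at 2.70 against 4.57 to 6.34. Fast skeletal muscle markers had a mean of 8.36 to 8.77 in 5 lung arrays, dnCREB PBS replicate 1 among them, and 3.31 to 4.67 in the other 7, which include WT PBS replicate 1. The part of these cells in the members' lung values was not tested.

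**Figure D4:**
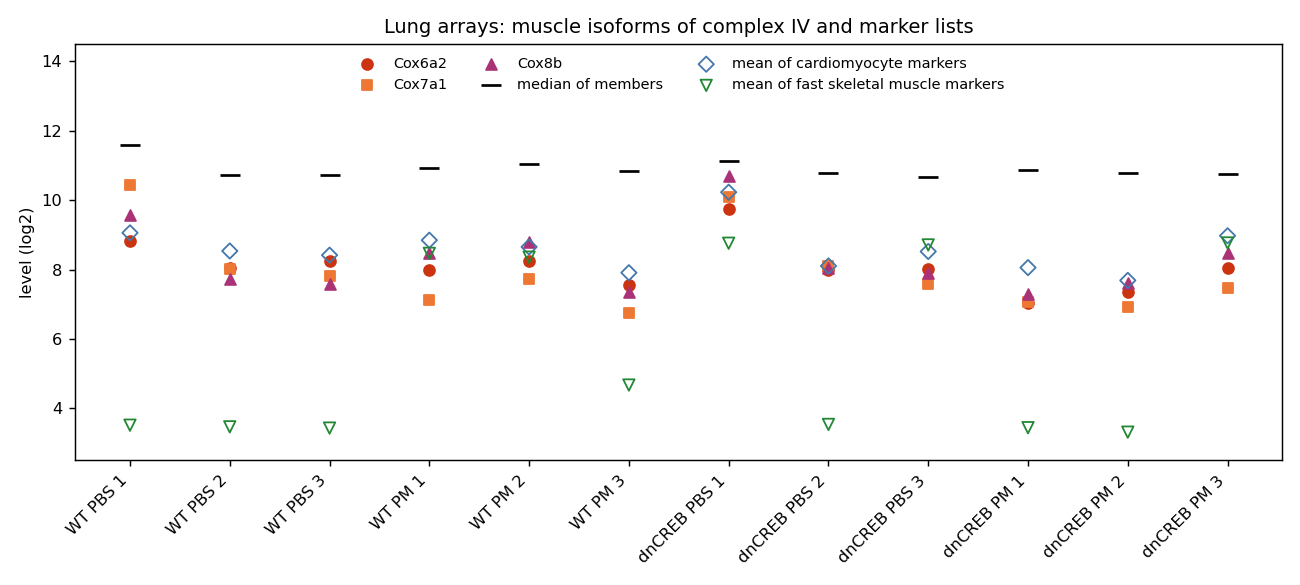
Levels in the 12 lung arrays (log2) of Cox6a2, Cox7a1 and Cox8b, the median of all 90 members, and the mean levels of the cardiomyocyte and fast skeletal muscle markers, 1 symbol each per array. The muscle isoforms reach 8.82 to 10.69 in WT PBS replicate 1 and dnCREB PBS replicate 1, and the skeletal muscle markers lie at 8.36 or higher in 5 arrays.

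Some genes were under the limit in heart but passed it in enough lungs to be tested there. Cox4i2 was at 4.15 to 6.13 in lung, Cox6b2 at 7.11 to 8.22 and Ndufa4l2 at 2.70 to 6.34. Ndufb1 was the reverse, at 7.96 to 8.26 in heart and above 4 in only 1 lung, where it was not tested. Levels are not set against each other across the tissues, since the lowest values differ between them in a way that points to separate normalization.

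A direct test of whether the genotype difference was unlike in heart and lung, over 83 members tested in both, called 4 under PBS and 4 under PM, all lower in heart. Under PBS, against a background of 10.2% called, 2.44% lower and 7.76% higher, these were Ndufs1 (-0.85 ± 0.20), Sdha (-0.90 ± 0.23), Atp5g2 (-0.89 ± 0.25) and Uqcrc1 (-0.83 ± 0.26). Under PM, against 10.9% called, 3.68% lower and 7.17% higher, they were Sdha (-0.78 ± 0.23), Ndufs1 (-0.65 ± 0.20), Atp5j (-0.68 ± 0.19) and Cox7c (-1.67 ± 0.50). The median over the members was -0.20 and -0.28 against 0.16 and 0.08 for all genes. For the other members a difference between the tissues was not shown. Without the 5 lung arrays high in skeletal muscle markers 0 members passed in either comparison (limma, on 7 lungs). Leaving out 1 of the 24 arrays at a time gave 1 (without lung dnCREB PBS replicate 1 or heart dnCREB PBS replicate 3) to 11 (without lung WT PBS replicate 1) under PBS and 1 to 6 under PM, and Ndufs1 under PBS kept its call in all of these fits. The PBS count was 2 without heart WT PBS replicate 2 or lung WT PBS replicate 3 and 8 without lung WT PM replicate 2. The PM count was 1 or 2 without any single PM array of either tissue except heart WT PM replicate 3.

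**Figure D5:**
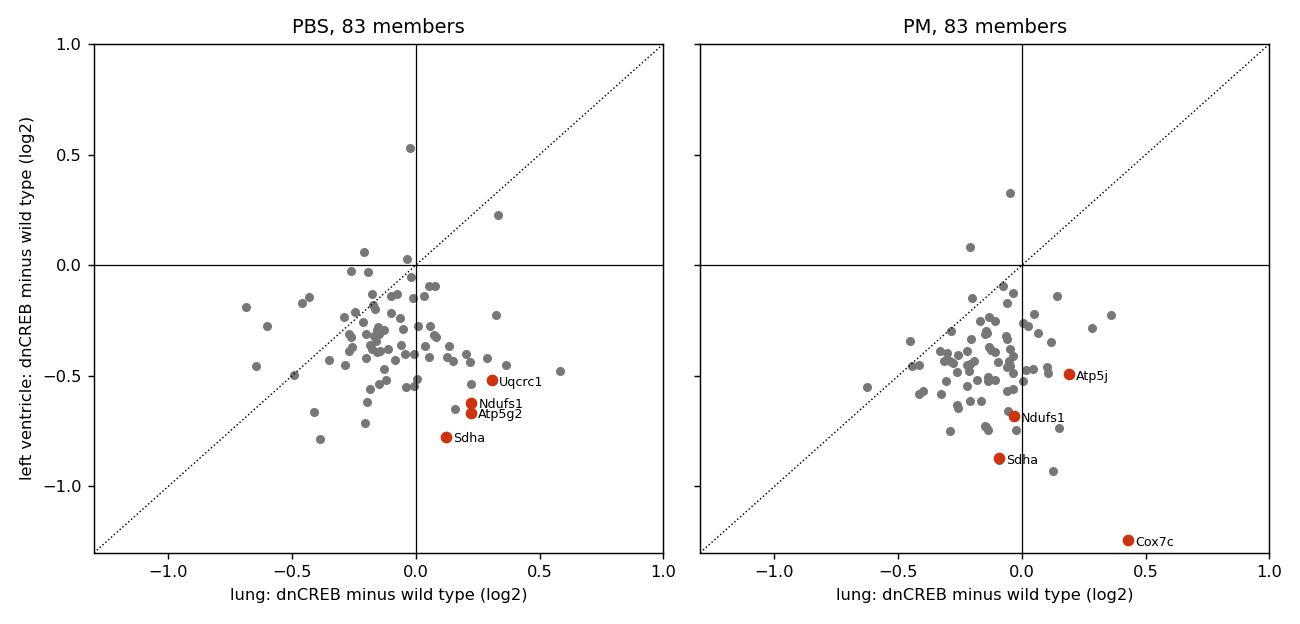
Log2 difference between dnCREB and WT in left ventricle (vertical) against lung (horizontal) for the 83 members tested in both tissues, under PBS (left) and PM (right), with a dotted line of equal differences and named points where the heart and lung differences differed (limma, adjusted p under 0.05). The 4 named members of each panel lie below the line.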

How the data were processed

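The authors deposited 1 log2 value for each probe set and array. The tool was GCRMA, per the submitters' processing notes, which give no version. GCRMA corrects background, normalizes probes between arrays and summarises probe sets; the lowest values differ between the tissues, so levels were not compared across them. High levels on such arrays can be compressed, so a log2 difference may understate a change. Probe sets were named from the platform annotation: of 45037, 34945 had 1 symbol, 932 several and 9160 none, and the last 2 kinds were left out. Genes above a log2 value of 4 in at least 3 arrays of a tissue were tested.

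For each tissue limma 3.58.1 (R 4.3.3) estimated 4 group means from 12 arrays, with Benjamini-Hochberg adjustment over all genes tested and a call at an adjusted p under 0.05; the differences between tissues used 1 model of all 24 arrays. The fit was tested on simulated data. Arrays give no counts, and their number limits the precision. No 2 arrays were identical. Tables and plots used Python 3.11.15, pandas 2.3.3 and matplotlib 3.10.9.

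The members, the gene lists and the naming rule were chosen with earlier results of these data known. Named are the 3 members with the smallest p per class and heart genotype comparison, the 4 Sdh genes, the isoform genes of complex IV with Ndufa4, Ndufa4l2 and Atpif1, the 3 smallest p in each other comparison within a tissue, any member called against the majority, and Creb1. Other names were chosen after their values were seen. The replicate numbers do not pair the arrays.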

Additional observations from a re-analysis of the deposited data

Results flagged for a closer look

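The genotype difference was tested between heart and lung, and 4 of 83 members passed under PBS and 4 under PM (limma, adjusted p under 0.05). This is 4.82% in each, all lower in heart. Of all genes, 10.2% were called under PBS, 2.44% lower, and 10.9% under PM, 3.68% lower. Under PBS the heart difference minus the lung difference was -0.85 for Ndufs1, -0.90 for Sdha, -0.89 for Atp5g2 and -0.83 for Uqcrc1. Under PM it was -0.68 for Atp5j, -0.78 for Sdha, -1.67 for Cox7c and -0.65 for Ndufs1. Cox7c lies near the level of 4 in both tissues.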

How the results depend on the processing

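No called value of a named gene changed sign under the alternatives run. The 37 members called in heart under PBS became 23 with arrays centred on their median and 16 with only the groups compared. They became 1 with a covariate for the class by Xist and Eif2s3y. The 51 under PM became 26 and 13 under the last 2 of these settings. Those fits called 1844, 1649 and 337 of all 9962 genes under PBS, and the last 2 called 1168 and 942 under PM. Without a filter the member counts were 38 and 58, and with a filter at 6 they were 35 and 50. They were 29 and 45 with quantile normalization, 38 and 57 with array weights and 49 and 66 with a variance trend. Leaving out 1 array gave 9 to 39 under PBS and 31 to 56 under PM. In the heart comparisons of PM leaving out 1 array gave 0 to 1 in WT and 0 to 0 in dnCREB and the interaction.

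In lung, PM in WT gave 2 member calls with array weights and 2 with the sex-chromosome class, and PM in dnCREB gave 6 with array weights. Of all 11600 genes these fits called 738, 2080 and 1772 in either direction. The heart against lung counts of 4 under PBS and 4 under PM became 22 and 9 with array weights, 0 and 1 with the sex-chromosome class and 0 and 0 without the 5 lung arrays with high skeletal muscle markers, and under PM 2 with centred arrays. Of all 9244 genes, 2121 under PBS and 1521 under PM were called with array weights, and 160 and 370 with the sex-chromosome class. Leaving out 1 array gave 1 to 11 and 1 to 6 members. The causes were not tested.

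With the replicate number as a block the heart counts were 28 and 48. The deviations of same-numbered arrays from their group means correlated above 0.1 in 4 of 18 heart pairs and 3 of 18 lung pairs. For arrays of different number this held in 6 of 36 heart pairs and 12 of 36 lung pairs. The numbers were therefore not taken to pair the arrays. Relative to all genes, the heart medians of -0.45 and -0.47 became -0.30 and -0.34 with quantile normalization. Of 1945 alternatives for the 85 named gene values, 1777 kept the side of the threshold, 135 lost a call and 33 gained one.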
